A study of Gallus gallus with 24 samples.

Results

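The genes described here encode 5 enzymes that bring carbon to triglyceride glycerol, to malate and to UDP-glucose, and they were measured in the abdominal fat of chickens bred for fatness or leanness. They are cytosolic glycerol-3-phosphate dehydrogenase (listed as GPD1), mitochondrial and cytosolic malate dehydrogenase (MDH2 and MDH1), UDP-glucose pyrophosphorylase (UGP2) and cytosolic phosphoenolpyruvate carboxykinase (PCK1). They were chosen with earlier results of these data known, were found by identifier, and are 5 of the 17934 features of the deposited table and 5 of the 11187 features that passed the filter on low counts. The question was whether transcripts of these carbon sources differ between birds of the fat line (FL) and of the lean line (LL).

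RNA of abdominal fat from 8 cockerels at 7 wk of age, 4 FL and 4 LL, was sequenced as 1 library per bird in 3 runs. FL and LL birds descend from divergent selection for high and for low abdominal fat weight, were reared under a standard broiler protocol, and carry no introduced allele or agent. A difference between them is therefore one between 2 bred lines, and how many genes lie behind it was not tested. The 3 runs of a bird were summed, giving 4299772 to 10878211 counts per FL bird and 5548867 to 12876999 per LL bird (n = 4 birds per line). Levels are given as counts per 1000000 counts of the library (CPM) after TMM normalization, a scaling of library sizes, and are not corrected for gene length, so that they compare birds and not genes. A gene was called differentially expressed (DE) when its adjusted p was no higher than 0.05 and the line means differed by 1.2-fold or more.

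A triglyceride needs glycerol 3-phosphate as its backbone. GPD1 makes it from the glycolytic intermediate dihydroxyacetone phosphate, glycerol kinase makes it from glycerol, and PCK1 opens a route from pyruvate and lactate (glyceroneogenesis) by turning oxaloacetate into phosphoenolpyruvate. MDH1 and MDH2 interconvert oxaloacetate and malate on either side of the mitochondrial membrane, cytosolic malic enzyme (ME1) draws NADPH for fatty acid synthesis from malate, and UGP2 makes the UDP-glucose from which glycogen and glycoconjugates are built. In the chicken, PCK1 is best known from the kidney, whereas the liver relies on the mitochondrial enzyme PCK2.

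The tissue was adipose by its markers, and 3 birds stood out by summed markers of other tissues. Summed levels of 9 adipocyte markers were 15882 to 19010 CPM in FL birds and 13655 to 17266 CPM in the LL. Stroma and endothelium markers (9 genes) summed to 28847 to 43445 CPM in FL birds and 40027 to 50675 in the LL. Of these 9 genes, 8 had a log2 fold change below 0, with a median of -0.12. Leukocyte markers (6 genes) summed to 5947 to 6827 CPM in the FL and 4870 to 7402 in the LL. The part of such cell composition in the values of the 5 genes was not tested. Skeletal muscle markers (7 genes, none at 0 in every bird) summed to 18980 CPM in FL replicate 4, against 86.7 to 95.6 in the other FL birds and 76.3 to 128 in the LL. Liver markers (15 genes) summed to 144 CPM in LL replicate 2 and 301 in LL replicate 3, against 30.8 to 45.3 in the other 6 birds. Markers of epithelium and mesothelium (8 genes) summed to 194 and 174 CPM in the same 2 LL birds, against 47.3 to 118 in the others. Fits without LL replicates 2 and 3, and without FL replicate 4 as well, were alternatives chosen after the data were seen. Their values are given beside the 5 genes. They are also given for each ratio, and each reported gene named by rule from the lists, whose call ended or whose value moved by over 1.5 times. Some of these values stand only in the section on processing. In whole tissue, fewer cells of a type and less RNA per cell cannot be told apart.

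Of the 5 genes, UGP2 was higher in the FL and PCK1 was higher in the LL by the DE thresholds, while GPD1 and MDH2 lay higher in all 4 FL birds without passing them, and MDH1 overlapped between the lines. Thus 2 of 5 genes were DE, where 0.366% of all tested genes were (0.206% toward the FL and 0.161% toward the LL). Nothing is read from that share, because the 5 genes were chosen with results of these data known and PCK1 passed the filter on low counts through its LL reads alone. Birds of the lines did not overlap for 4 of the 5, 3 with the FL on top and 1 with the LL on top. Over all tested genes 8.1% did not overlap, since 3.76% had all FL birds above the LL birds and 4.34% the reverse. For each of these 4 genes the exact permutation test over birds gave p = 0.0286 (two-sided), which is the smallest that 4 birds against 4 allow. This p follows from the lack of overlap itself, so that it is no further result and nothing is read from it.

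**Figure D1:**
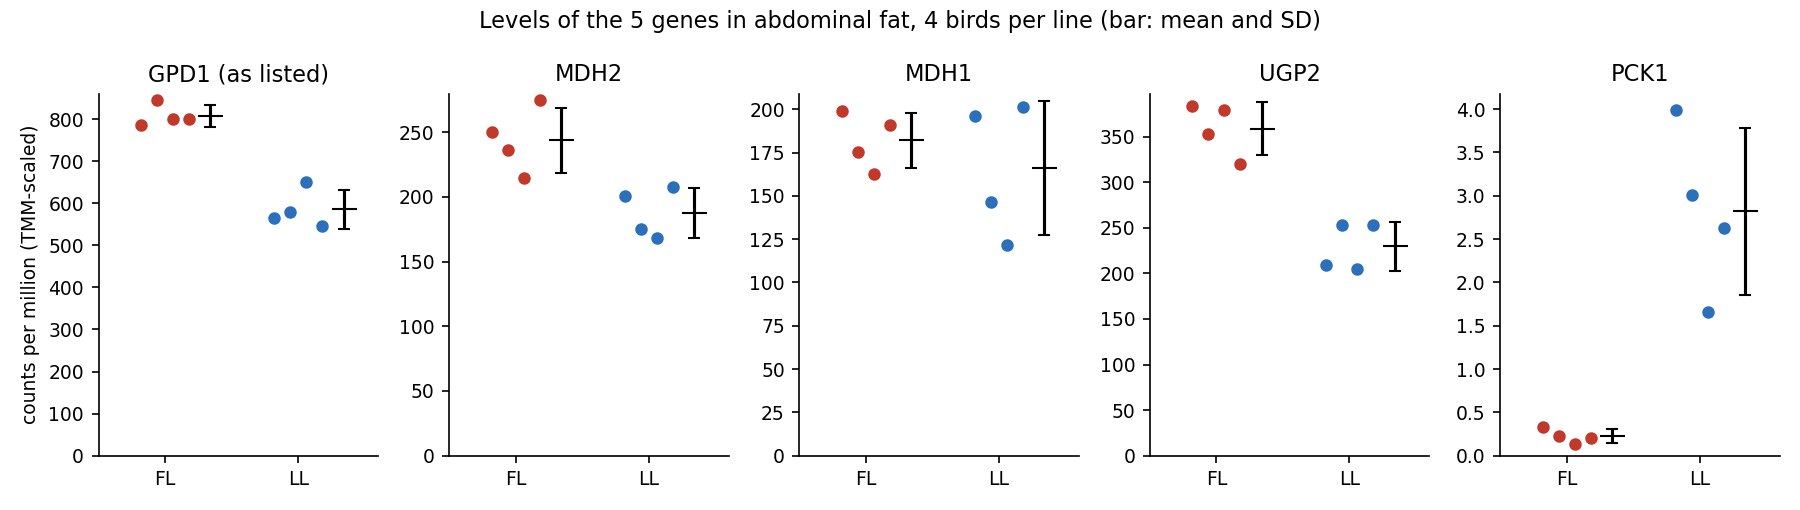
Levels of GPD1, MDH2, MDH1, UGP2 and PCK1 (CPM, vertical axes from 0) in the 4 FL birds (red) and the 4 LL birds (blue), with mean and SD beside the points. For GPD1, MDH2 and UGP2 every FL point is above every LL point, for PCK1 every LL point is above every FL point, and for MDH1 the lines overlap.

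Listed GPD1, the enzyme at the branch from glycolysis to the glycerol backbone, was the most even of the 5 within the FL. It measured 786, 846, 800.5 and 801 CPM in FL replicates 1 to 4, and 566, 579.5, 652 and 546 CPM in LL replicates 1 to 4. The lowest FL bird was above the highest LL bird, and the coefficient of variation between birds was 3.21% in the FL and 7.84% in the LL. The line means were 808 ± 26.0 and 586 ± 46.0 CPM (SD, n = 4), a fold change (FL/LL) of 1.38. The log2 fold change was 0.46 (SE 0.10), with an unadjusted p of 0.000643 and an edgeR adjusted p of 0.0817, so that GPD1 was not a DE gene. In the Scheme C runs alone, the 2 runs per bird in which all 8 libraries shared a lane, the log2 fold change was 0.47 and GPD1 passed (adjusted p = 0.0414 in edgeR). In the first runs alone it was also 0.47 (adjusted p = 0.253 in edgeR). DESeq2 gave 0.47 with an adjusted p of 4.61e-05. Without LL replicates 2 and 3 it was 0.54 (adjusted p = 0.185 in edgeR), and with FL replicate 4 left out as well it was also 0.54 (adjusted p = 0.116 in edgeR).

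The identity of this feature needs a caution. The feature listed as GPD1 lies on chromosome 7 (29770312 to 29795774 in build 2.1, to which all positions refer), with OSBPL11 and LMLN as neighbours 8894 and 5508 bp away. In the RefSeq annotation of the later assembly GRCg7b, the gene between OSBPL11 and LMLN is named GPD1L2 (gene number 424263), and GPD1 is another gene (gene number 426881) on chromosome 34, between COX14 and SMARCD1. The table holds a separate feature of that gene number, LOC426881 (chrE22C19W28_E50C23, 268880 to 270004), next to SMARCD1. Both names are of NAD-dependent glycerol-3-phosphate dehydrogenases. Below, GPD1 means the chromosome 7 feature as listed.

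LOC426881 had few reads. It had 5, 2, 1 and 38 counts in FL replicates 1 to 4, and 3, 4, 6 and 4 in LL replicates 1 to 4. In CPM this was 3.85 in FL replicate 4 and 0.136 to 0.709 in the other 7 birds, and the feature did not pass the filter on low counts. The bird with 38 counts is the one with the muscle markers, and the part of muscle RNA in that value was not tested. The chromosome 7 feature was not raised in this bird, with 801 CPM against 786 to 846 in the other FL birds. GPD1L, another dehydrogenase of the family, had 39.2 ± 3.42 CPM in FL birds and 39.1 ± 1.96 in LL birds (SD, n = 4), or a log2 fold change of 0.01 (SE 0.10, adjusted p = 0.987 in edgeR).

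MDH2, which turns malate into oxaloacetate in the mitochondrial matrix, followed GPD1 in direction. MDH2 (chromosome 19, 4250913 to 4258898) measured 249.9, 237, 215 and 275 CPM in FL replicates 1 to 4, and 201, 175, 168 and 208 CPM in LL replicates 1 to 4. The FL and LL birds did not overlap, with FL replicate 3 and LL replicate 4 close to each other. The line means were 244 ± 25.1 and 188 ± 19.3 CPM (SD, n = 4), and the log2 fold change was 0.38 (SE 0.11, unadjusted p = 0.00695, adjusted p = 0.185 in edgeR). DESeq2 gave 0.38 as well (adjusted p = 0.0548). The 2 lowest LL birds are the 2 with liver and epithelial markers, and without them the log2 fold change was 0.26 (adjusted p = 0.489 in edgeR). The highest FL bird is the one with muscle markers, and with all 3 birds left out it was 0.19 (adjusted p = 0.508 in edgeR). The part of RNA of other tissues in the MDH2 values was not tested. The annotated end of MDH2 overlaps the start of STYXL1 by 155 bp. STYXL1 held 11 counts in all FL birds and 16 in all LL birds together, against 7619 and 6028 for MDH2.

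MDH1, the cytosolic partner in the malate-aspartate shuttle, did not differ beyond its spread. MDH1 (listed as MDHC_CHICK, chromosome 3, 9432833 to 9444088) measured 199, 175, 163 and 191 CPM in FL replicates 1 to 4, and 196, 146, 121 and 201 CPM in LL replicates 1 to 4. The highest of all birds was LL replicate 4 and the lowest LL replicate 3, so that the LL birds spanned the FL birds. The coefficient of variation was 8.86% in the FL and 23.3% in the LL. The means were 182 ± 16.1 and 166 ± 38.8 CPM (SD, n = 4), and the log2 fold change was 0.13 (SE 0.16, adjusted p = 0.785 in edgeR), so that 2 SE on either side leave folds (FL/LL) from 0.877 to 1.37. The 2 low LL birds are again those with liver and epithelial markers, whose part was not tested. Without them the log2 fold change of MDH1 was -0.13 (adjusted p = 0.700 in edgeR), the opposite direction, and it was -0.15 (adjusted p = 0.621 in edgeR) when FL replicate 4 was left out as well.

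UGP2 was the DE gene of the 5 that was higher in the FL. UGP2 (listed as Q5ZKW4_CHICK, chromosome 3, 9465561 to 9489126) measured 384, 353, 379 and 320.3 CPM in FL replicates 1 to 4, and 209, 253, 204 and 253 CPM in LL replicates 1 to 4. Every FL bird was above every LL bird, and the gap between the lines was wider than for GPD1 or MDH2 in proportion to the LL mean. The means were 359 ± 29.2 and 229.9 ± 26.7 CPM (SD, n = 4), a fold change (FL/LL) of 1.56. The log2 fold change was 0.64 (SE 0.11, adjusted p = 0.0462 in edgeR). UGP2 and MDH1 are neighbours on the chromosome, 21472 bp apart, and their log2 fold changes were 0.64 and 0.13. VPS54 begins 424 bp from UGP2, and flanking sequence of 200 bases on either side of each gene was part of the counted region.

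The call of UGP2 sat close to the threshold. When single birds were left out, the edgeR adjusted p was 0.0346 without FL replicate 4 and over 0.05 in the other 7 fits. It was 0.146, 0.105 and 0.137 without FL replicates 1, 2 and 3, and 0.0734, 0.110, 0.103 and 0.122 without LL replicates 1 to 4. The log2 fold change stayed between 0.59 and 0.69 in these fits. Scaling to total counts gave 0.59 (adjusted p = 0.0959 in edgeR). Within Scheme C it was 0.61 and passed (adjusted p = 0.0296 in edgeR), and in the first runs alone it was 0.69 (adjusted p = 0.132 in edgeR). Without LL replicates 2 and 3 it was 0.63 (adjusted p = 0.178 in edgeR), and without FL replicate 4, LL replicate 2 and LL replicate 3 it was 0.68 (adjusted p = 0.0975 in edgeR).

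The first runs of a bird also read UGP2, GPD1 and MDH1 at another level than its later runs. Per 1000000 counts of the run, UGP2 was 429.8, 402 and 408 in the first runs of FL replicates 1, 2 and 3, and 304 to 371 in their 6 Scheme C runs. In LL replicates 1, 2 and 4 it was 239.6, 271 and 284 in the first runs and 175 to 257 in the Scheme C runs. These 6 first runs came from Scheme A, with 4 libraries per lane. The 2 first runs from Scheme B, with 1 library per lane, had 288 in FL replicate 4 and 195 in LL replicate 3, and neither was above both later runs of its bird. GPD1 and MDH1 had the same order: the first run was above both later runs in each of the 6 Scheme A birds and in neither Scheme B bird. For MDH1 this was 235 in the first run of LL replicate 4, against 189 and 190 in its later runs. MDH2 did not keep this order, with 173 in the first run of LL replicate 2 and 177 and 186 in its later runs. Each line had 3 Scheme A birds and 1 Scheme B bird, so that scheme and line were balanced.

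PCK1 was the gene of the 5 that was higher in the LL, and it was barely read in either line. PCK1 (listed as PCKGC_CHICK, chromosome 20, 11513197 to 11521319) had 3, 1, 1 and 2 counts in FL replicates 1 to 4, and 28, 17, 21 and 19 counts in LL replicates 1 to 4. Every LL bird had more than 5 times the count of any FL bird, although FL replicate 4 was sequenced more deeply than 3 of the 4 LL birds. In CPM this was 0.327, 0.229, 0.136 and 0.203 in the FL and 3.99, 3.01, 1.66 and 2.62 in the LL, with means of 0.224 ± 0.0794 and 2.82 ± 0.963 (SD, n = 4). Over the 3 runs of each bird, 6 of 12 FL runs had no PCK1 read and the others had at most 2, whereas the 12 LL runs had 2 to 18.

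**Figure D2:**
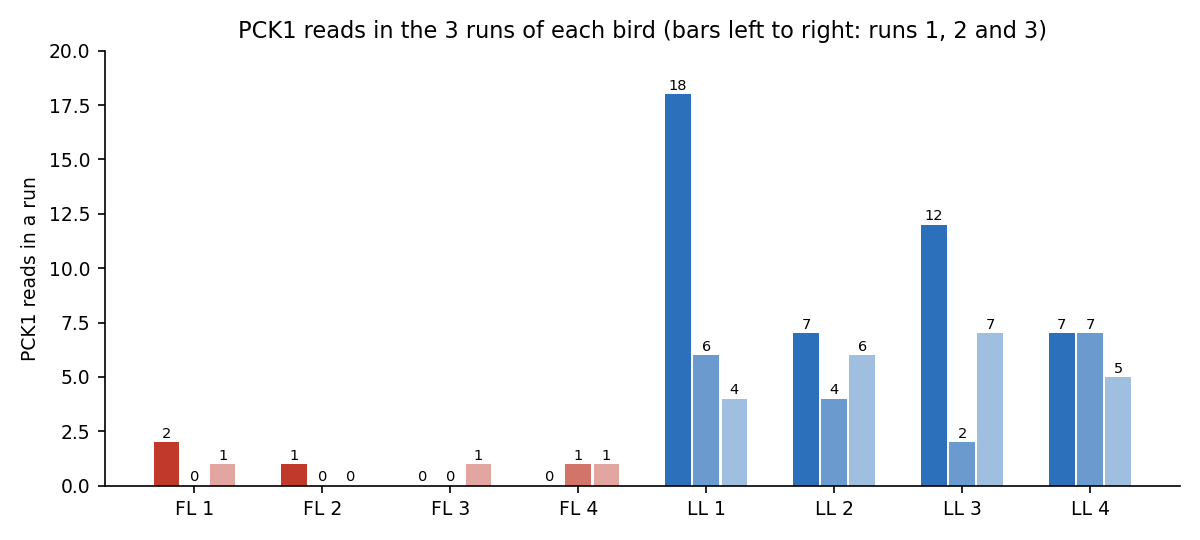
PCK1 reads (vertical axis, counts from 0) in each of the 3 sequencing runs of the 8 birds, FL in red and LL in blue, with runs 1, 2 and 3 from left to right. The FL runs hold 0 to 2 reads and the LL runs 2 to 18.

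The sums were 7 reads in the FL and 85 in the LL. Relative to the summed TMM-scaled library sizes of the lines, this was a ratio (LL/FL) of 11.5. Its exact 95% interval of 5.34 to 29.4 covers counting error only. The fitted log2 fold change was -3.52 (SE 0.45, adjusted p = 0.0249 in edgeR), and its size depends on the prior count added to such low values. PCK1 passed the filter on low counts through the LL birds alone. When single birds were left out, the edgeR adjusted p was 0.0668 and 0.0639 without FL replicates 1 and 3 and 0.0787 and 0.0680 without LL replicates 2 and 4, while the other 4 fits kept the call. Without LL replicates 2 and 3 the log2 fold change was -3.77 (adjusted p = 0.0541 in edgeR), and without FL replicate 4 as well it was -3.70 (adjusted p = 0.0737 in edgeR).

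Markers of other tissues were set beside PCK1 in each bird, and their part in the PCK1 reads was not tested. The highest PCK1 level, 3.99 CPM, was in LL replicate 1, where the liver markers summed to 35.2 CPM, 18.8 of them from BHMT, and the epithelial and mesothelial markers to 65.5 CPM. The lowest LL level, 1.66 CPM, was in LL replicate 3, where the liver markers summed highest. Other liver markers also peaked in LL replicate 3. ALB had 3.70, 84.2, 204 and 3.45 CPM in LL replicates 1 to 4, and FGA, FGB, FGG, AHSG, APOB and APOH were highest in LL replicate 3 too. By contrast, APOA1 and KL, each read at a few CPM or less, ordered the LL birds as PCK1 did. They were picked after the values were seen, and no other matched liver or kidney marker had that order. The kidney marker LRP2, for example, had 45.8, 30.5, 73.7 and 38.3 CPM in LL replicates 1 to 4. Nothing is read from the order of APOA1 and KL. APOA1, an apolipoprotein among the liver markers, had 4.27, 2.13, 0.316 and 1.795 CPM in LL replicates 1 to 4 and 0.608 to 1.83 in the FL. KL (klotho), a kidney marker, had 1.42, 1.06, 0.237 and 0.552 CPM in LL replicates 1 to 4 (10, 6, 3 and 4 counts) and 0.109 to 1.14 in the FL. Both APOA1 and KL overlapped between the lines, unlike PCK1.

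Kidney markers (9 genes) summed to 51.5 to 74.2 CPM in FL birds and 40.2 to 80.5 CPM in the LL. Most of that sum was LRP2 (megalin), at 42.8 to 67.7 CPM in the FL and 30.5 to 73.7 in the LL, followed by its partner receptor CUBN, at 4.69 to 6.69 and 4.41 to 7.18 CPM. Of the 9 genes, 2 were at 0 in every bird, among them AQP2 of the collecting duct. The pancreas markers (6 genes) summed to 38.2 to 57.2 CPM in the FL and 52.9 to 70.1 in the LL, and the intestine markers (5 genes) to 4.48 to 5.37 and 4.70 to 7.26 CPM. Those sums overlapped, while 1 marker of each was higher in every LL bird, as PCK1 was. The pancreas marker GCG (proglucagon) had 1.199 to 4.12 CPM in the FL and 4.43 to 5.52 in the LL, and the intestine marker SI (sucrase-isomaltase) had 0 to 0.203 and 0.276 to 1.11 CPM.

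PCK2, the mitochondrial isoform, had 5.78 to 15.9 CPM in FL birds and 6.55 to 15.4 in the LL, with a log2 fold change of -0.23 (SE 0.34, adjusted p = 0.830 in edgeR).

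**Figure D3:**
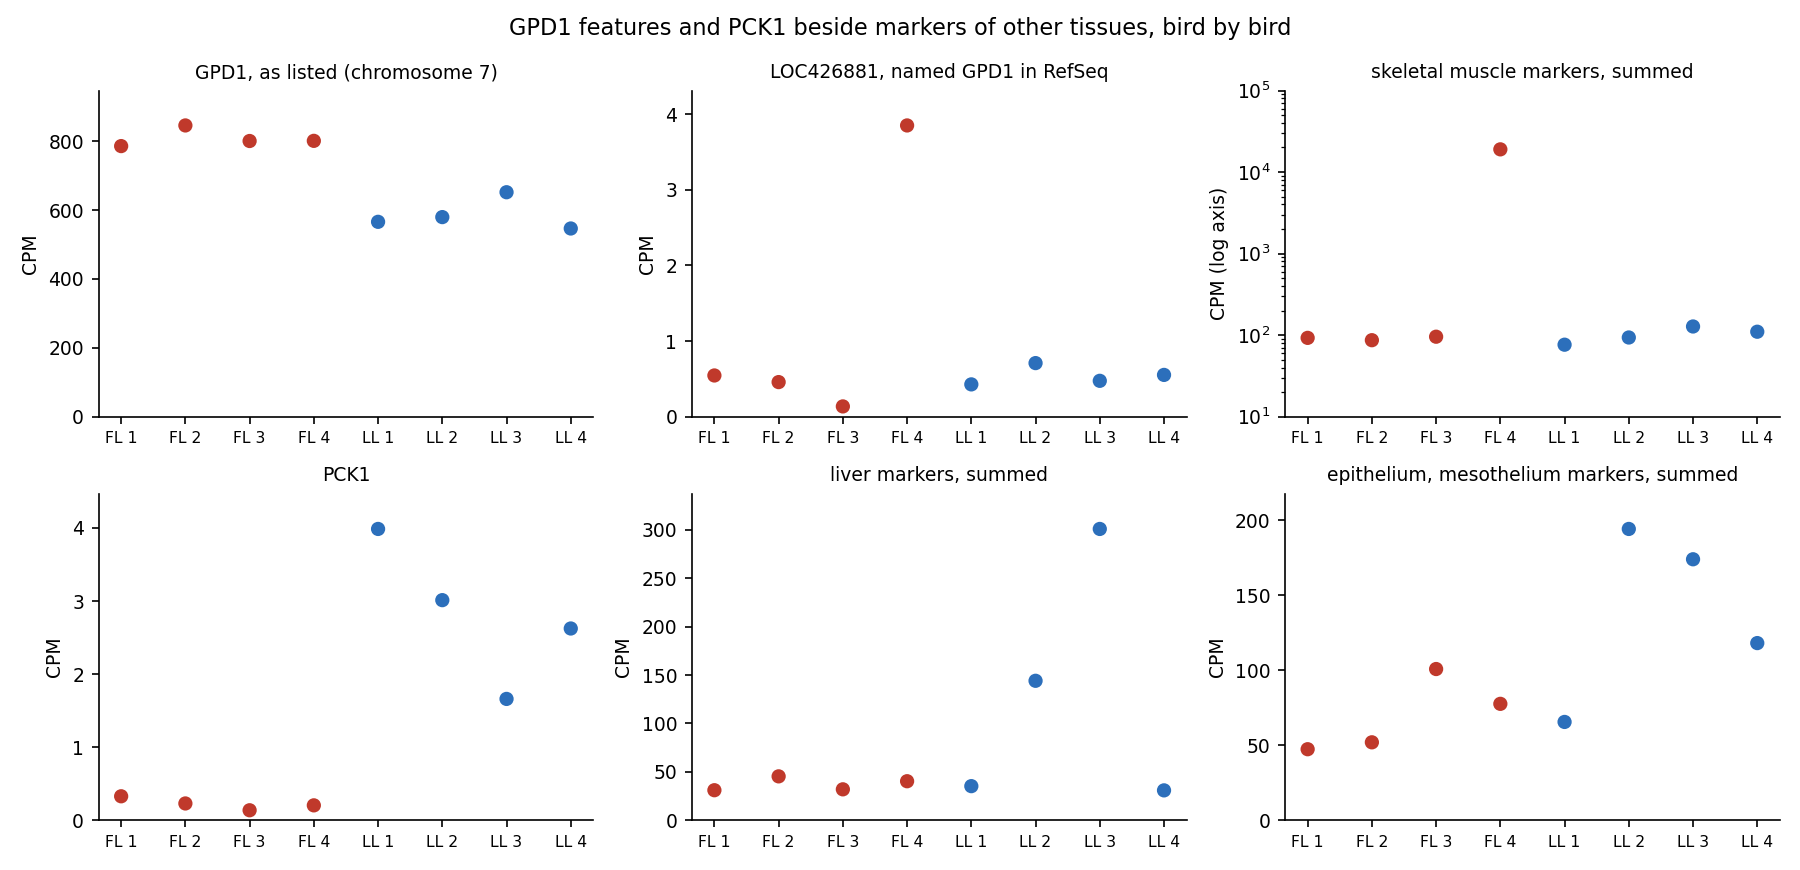
Levels in each bird (CPM, FL red, LL blue) of the chromosome 7 GPD1 feature, LOC426881 and the summed skeletal muscle markers (log axis) above, and of PCK1 and the summed liver and epithelial and mesothelial markers below. LOC426881 is high in FL replicate 4, as are the muscle markers, while GPD1 is not, and PCK1 is highest in LL replicate 1, where the liver markers sum to 35.2 CPM and the epithelial and mesothelial markers to 65.5 CPM.

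The study designed a primer pair for PCK1, the gene whose few reads carry this difference, and the sequences are shown (5′ to 3′, lower case, no base marked). Where the primers lie on the counted feature was not tested. The values of the study's assay with these primers were not used here.
PCK1 forward: tgatgacacggatgggaaca
PCK1 reverse: cgagtgaaggcatttcacaaac

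Ratios of counts within a bird compare 2 enzymes without any scaling between birds, and 5 were computed with a pseudocount of 0.5. They compare birds, not the amounts of the 2 transcripts, since gene length was not corrected for. GPD1/PCK1 sets the enzyme that makes glycerol 3-phosphate from dihydroxyacetone phosphate against the one that opens glyceroneogenesis. It does not measure the share of carbon from either route. This ratio was 2059.6, 2466, 3935 and 3160.2 in FL replicates 1 to 4, and 139, 187, 384 and 203 in LL replicates 1 to 4. The lines lay far apart, by 3.73 on the log2 scale, and this difference rests on the few PCK1 reads. It was 3.44 with a pseudocount of 1, 3.58 within Scheme C and 3.76 in the first runs. ME1/MDH1, the enzymes that use cytosolic malate for NADPH and that exchange it with oxaloacetate, was 0.515, 0.507, 0.489 and 0.591 in the FL, and 0.223, 0.379, 0.449 and 0.282 in the LL. The lines again did not overlap, with a log2 difference of 0.70, which was 1.06 without LL replicates 2 and 3. Both ratios had p = 0.0286 in the two-sided exact permutation test over the 70 arrangements of birds (n = 4 per line), and 0.0714 after adjustment over the 5 ratios, so that neither passed. The unadjusted p is the smallest possible and follows from the lack of overlap. Nothing is read from the p of GPD1/PCK1, since PCK1 passed the filter on low counts through its LL reads alone.

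The other 3 ratios overlapped between the lines. GPD1/GPD2, the cytosolic against the mitochondrial dehydrogenase of the glycerol phosphate shuttle, was 6.24 to 8.38 in the FL and 5.32 to 7.04 in the LL, a log2 difference of 0.26 (exact permutation p = 0.0857, adjusted p = 0.107) that was 0.15 without LL replicates 2 and 3. GPD1/GK, glycerol phosphate from dihydroxyacetone phosphate against phosphorylation of free glycerol, was 10.1 to 14.5 in the FL and 9.14 to 10.5 in the LL. Its log2 difference was 0.34 (exact permutation p = 0.0571, adjusted p = 0.0952), and 0.19 without FL replicate 4, LL replicate 2 and LL replicate 3. MDH1/MDH2 was 0.696 to 0.795 in the FL and 0.722 to 0.977 in the LL, a log2 difference of -0.22 (exact permutation p = 0.114, adjusted p = 0.114) that was -0.38 without LL replicates 2 and 3 and -0.35 without FL replicate 4 too. Within Scheme C the log2 difference of MDH1/MDH2 was -0.11, and in the first runs alone it was -0.32. The ratio of MDH1 to MDH2 was lowest among LL birds in LL replicate 3. Both glycerol kinase and GPD2 overlapped between the lines on their own, with log2 fold changes of 0.12 (SE 0.14, adjusted p = 0.770 in edgeR) for GK and 0.20 (SE 0.14, adjusted p = 0.575 in edgeR) for GPD2.

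**Figure D4:**
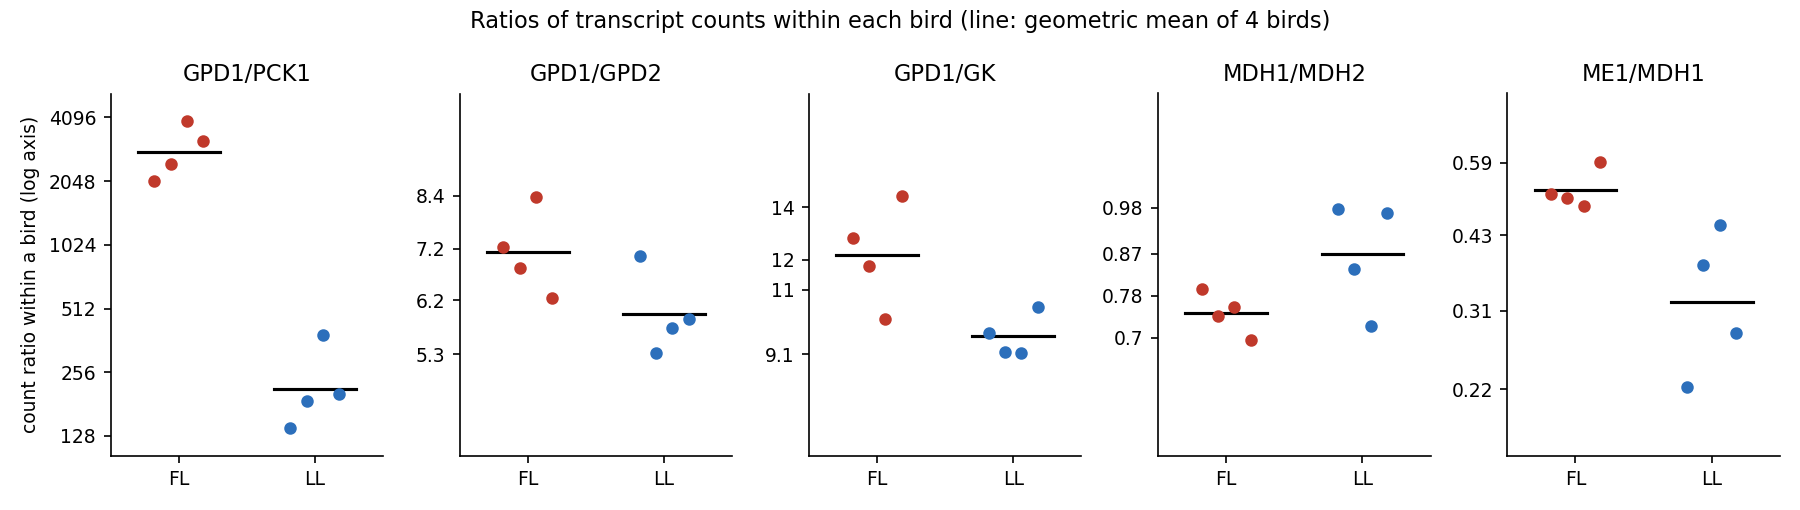
Ratios of counts within each bird (vertical log axes, each panel with its own scale) for 4 FL birds (red) and 4 LL birds (blue), with the geometric mean of the line as a black bar. GPD1/PCK1 and ME1/MDH1 separate the lines, at 2059.6 to 3935 against 139 to 384 and at 0.489 to 0.591 against 0.223 to 0.449, and the other 3 ratios overlap.

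The enzymes around the 5 genes were taken as 7 lists of 101 genes in all, of which 67 were matched to the table and 65 were tested. A single one, ME1, was DE, 7 had an unadjusted p under 0.05 with the higher level in the FL and 2 with the higher level in the LL, and their median log2 fold change was 0.15. Over all tested genes the median log2 fold change was 0.00, 50.5% were above 0 and 13.1% had an unadjusted p under 0.05.

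Glycerol 3-phosphate supply and the routes through pyruvate held no DE gene. In the supply list, 8 genes were tested, none had an unadjusted p under 0.05, and the median log2 fold change was 0.09. Its 2 genes of smallest p were GK5, annotated as a glycerol kinase, at 13.7 ± 1.90 CPM in FL birds and 11.0 ± 2.25 in LL birds (SD, n = 4), and the triose phosphate isomerase gene TPI1, with a log2 fold change of 0.33 (SE 0.21, adjusted p = 0.549 in edgeR). The log2 fold change of GK5 was 0.30, and 0.07 without LL replicates 2 and 3, and 0.17 with FL replicate 4 left out as well. TPI1 had 361 CPM in FL replicate 4 and 178 to 202 in the other FL birds, and without that bird its log2 fold change was 0.04. Without LL replicates 2 and 3 the log2 fold change of TPI1 was 0.19. In the list of pyruvate, phosphoenolpyruvate and lactate enzymes, 8 genes were tested and the median log2 fold change was 0.23. LDHB, the heart-type lactate dehydrogenase subunit, was 409.96, 382, 356 and 442 CPM in FL birds and 313, 275, 257 and 288 in the LL. The lines did not overlap for LDHB, and its log2 fold change was 0.49 (SE 0.11, adjusted p = 0.104 in edgeR). LDHA, the muscle-type subunit, had a log2 fold change of 1.16 (SE 0.53, adjusted p = 0.381 in edgeR) that fell to 0.14 without FL replicate 4.

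Around malate, the 9 tested genes of the malate-aspartate and citrate shuttle list all had log2 fold changes above 0, from 0.08 to 0.43 with a median of 0.23, and none had an unadjusted p under 0.05. The smallest p was that of GOT2, the mitochondrial aspartate aminotransferase (0.30, SE 0.15, adjusted p = 0.441 in edgeR). FL replicate 4 was the highest bird for GOT2, and without it the log2 fold change was 0.11. With LL replicates 2 and 3 left out as well, the log2 fold change of GOT2 was 0.16. The 8 tested genes of the NADPH list were also all above 0, from 0.03 to 0.87 with a median of 0.15.

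ME1 carried the top of the NADPH list. ME1 (listed as Q90XC0_CHICK, chromosome 3, 80491043 to 80649414) measured 102, 88.7, 79.5 and 113 CPM in FL replicates 1 to 4, and 43.6, 55.3, 54.5 and 56.6 CPM in LL replicates 1 to 4. The FL birds were all above the LL birds. The means were 95.9 ± 14.7 and 52.5 ± 6.02 CPM (SD, n = 4), and the log2 fold change was 0.87 (SE 0.13, adjusted p = 0.0322 in edgeR). As with UGP2, the adjusted p rose over 0.05 in most fits with 1 bird left out, to 0.101, 0.0653 and 0.0579 without FL replicates 1, 2 and 3 and to 0.0906, 0.0688 and 0.111 without LL replicates 2, 3 and 4. It was 0.139 without LL replicates 2 and 3 together (log2 fold change 0.94), and 0.107 without FL replicate 4 as well (0.85). The mitochondrial isoform ME3 and the NADP-dependent isocitrate dehydrogenases IDH1 and IDH2 had log2 fold changes of 0.11, 0.15 and 0.16, none with an unadjusted p under 0.05.

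Around UGP2, the list of UDP-glucose and glycogen genes was balanced, with 6 of 13 tested genes above 0, 7 below and a median log2 fold change of -0.04. PYGB, a glycogen phosphorylase, was the one gene of the list with an unadjusted p under 0.05, at 72.6 ± 11.5 CPM in FL birds and 90.2 ± 7.13 in LL birds (SD, n = 4), or a log2 fold change of -0.31 (SE 0.12, adjusted p = 0.299 in edgeR). UGDH, which oxidizes UDP-glucose to UDP-glucuronate, had a log2 fold change of 0.16 (SE 0.11, adjusted p = 0.557 in edgeR). The glycogen branching enzyme GBE1 was at -0.04 (SE 0.17, adjusted p = 0.950 in edgeR).

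Glycolysis, which feeds dihydroxyacetone phosphate to GPD1, had 10 tested genes, 9 above 0, with a median log2 fold change of 0.31. HK2, which phosphorylates glucose, was 206, 214, 273 and 349.6 CPM in FL birds and 102, 205, 209 and 143 in the LL. LL replicate 3 was above FL replicate 1, and the log2 fold change was 0.66 (SE 0.24, adjusted p = 0.264 in edgeR). It was 0.49 without FL replicate 4, 1.09 without LL replicates 2 and 3 (adjusted p = 0.186 in edgeR) and 0.91 without all 3 (adjusted p = 0.116 in edgeR). PFKM, the muscle phosphofructokinase, had 134 CPM in FL replicate 4 and 0.686 to 1.53 in the other FL birds, so that its log2 fold change of 4.72 (SE 1.59, adjusted p = 0.229 in edgeR) became -0.17 without that bird. The muscle markers were high in the same bird, and their part in the glycolytic values was not tested.

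Among 9 tested transcription factors known to act on the PCK1 gene in mammals, none was DE and the median log2 fold change was 0.11. RXRG, a retinoid X receptor, had a log2 fold change of 0.85 (SE 0.25, adjusted p = 0.180 in edgeR), the opposite direction to PCK1. NR3C1, the glucocorticoid receptor, was 67.5 to 76.2 CPM in FL birds and 78.4 to 88.2 in the LL, with no overlap and a log2 fold change of -0.20 (SE 0.09, adjusted p = 0.368 in edgeR). PPARG, the adipocyte factor that drives glyceroneogenic PCK1 in rodent fat, was at 0.11 (SE 0.12, adjusted p = 0.765 in edgeR).

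**Figure D5:**
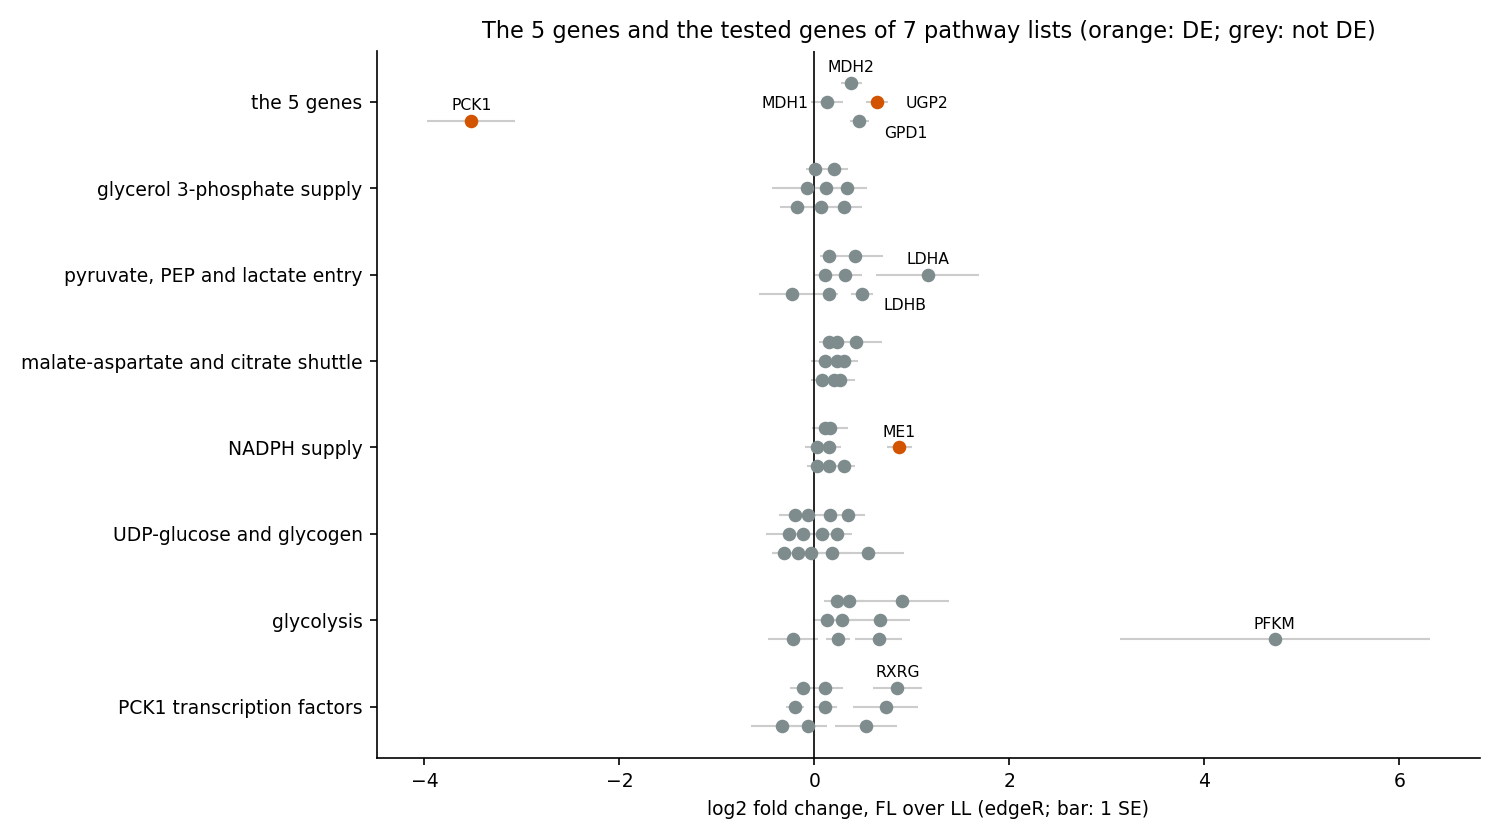
Log2 fold changes (FL/LL, horizontal axis, bars 1 SE) of the 5 genes and of the tested genes of 7 pathway lists, one row per list, with DE genes in orange and the others in grey. PCK1 at -3.52, UGP2 at 0.64 and ME1 at 0.87 are the DE genes, the shuttle and NADPH genes all lie above 0, and PFKM at 4.72 rests on FL replicate 4.

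The patterns of the 5 genes over the 8 birds were compared by the root mean square difference of log2 CPM, centred on each gene, where 0 means the same pattern. MDH2 and MDH1 differed by 0.17, GPD1 and MDH2 by 0.19, GPD1 and UGP2 by 0.20, and PCK1 differed from the other 4 by 1.42 to 1.68. Among all tested genes, the nearest to GPD1 was DUSP10 (0.08), and an unnamed feature (0.09) was also among the nearest. Nearest to MDH2 were TAF13 (0.07), DNAJC18 (0.08) and LDHB (0.08), and nearest to MDH1 was RMI2 (0.05), before the unnamed features Q5ZIQ5_CHICK (0.06) and Q5ZLB6_CHICK (0.07). UGP2 was nearest to the unnamed feature Q5ZIC9_CHICK (0.09) and to 2 genes of lysosomal sphingolipid breakdown, ASAH1 (0.10) and PSAP (0.10). For PCK1 the nearest were COL6A6 (0.52), a collagen VI chain, and 2 features named MCTP2 (0.60 and 0.66). COL6A6 had 3.62 ± 1.39 CPM in FL birds and 19.1 ± 5.03 in LL birds (SD, n = 4). Scaling to total counts moved none of these distances by more than 0.01. Likeness over 8 birds of 2 lines is dominated by the difference between the lines and is given as a description.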

How the data were processed

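Line, bird and run were taken from the titles of the 24 samples, since the description of the LL samples names the fat line, and the scheme of each run from the methods of the study. The authors trimmed paired-end reads of 101 bases, mapped them with CLC Genomics Workbench 5.1 to chicken build 2.1 with the Ensembl release 64 annotation and 200 flanking bases per gene, allowing 2 mismatches, and discarded reads that mapped to several places. The deposited counts are unique exon reads per gene and run, without normalization. A further 24 columns of normalized values per run and the authors' means, fold changes and p-values were not used. No strand is stated, so antisense or overlapping genes cannot be separated.

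Runs were summed per bird. The lines were compared with edgeR 4.0.16 (filterByExpr, TMM, glmQLFit and glmQLFTest) under R 4.3.3. P-values were adjusted by the method of Benjamini and Hochberg across the 11187 genes that passed the filter. Ratios were compared with exact permutation tests. DESeq2 1.42.0, limma 3.58.1 voom, other filters, scaling and runs, a replicate block and leaving out each bird were alternatives. Leaving out LL replicates 2 and 3 together, with or without FL replicate 4, and total scaling for likeness, were added after the data were seen. The code was tested on simulated data. The 5 genes and the lists were chosen with earlier results of these data known. Named genes are the 5, from each list each DE gene or otherwise the 2 of smallest p, and the 3 most alike to each of the 5. Some genes that this rule picks are not reported here, and others (such as GPD1L, PCK2 and PPARG) were named after their values were seen. Names came from the table, the study's supplements and RefSeq (GRCg7b, names and neighbours only), for 10390 of 17934 features, and 34 listed genes had no match. The planned ratio of UGP2 to PGM1 was not computed because PGM1 was not matched. Figures were drawn with matplotlib 3.10.9.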

Additional observations from a re-analysis of the deposited data

Results flagged for a closer look

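The search covered 17 genes, which are the 5 enzymes, LOC426881 and the genes named by rule from the pathway lists, and no other gene of the report. Of their 34 sets of 4 birds of a line, 5 held 1 bird whose distance from the others was past the limit that Dixon's test sets at 95%. Chance gives about 1 in 20. In FL replicate 4 this was seen for LOC426881 at 3.85 CPM (others 0.136 to 0.545), LDHA at 533 CPM (others 82.6 to 118), PFKM at 134 CPM (others 0.686 to 1.53) and TPI1 at 361 CPM (others 178 to 202). FL replicate 4 is the bird with 18980 CPM of skeletal muscle markers. In the LL, ME1 was 43.6 CPM in LL replicate 1 (others 54.5 to 56.6). None of the 5 enzymes of the report had such a bird in either line.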

How the results depend on the processing

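The directions of GPD1, MDH2, UGP2 and PCK1 held in every fit that could be made, and calls depended on the setting. Against 41 DE genes, 23 higher in the FL, DESeq2 gave 319, no filter 27, Scheme C runs alone 133, first runs alone 1, 24 runs as replicates 1327 and voom with bird as a random effect 715. Total scaling gave 46, of which 20 were higher in FL birds and 26 in LL birds (18 of 41 in LL birds otherwise). Leaving out 1 bird at a time gave 2 to 65 (65 without FL replicate 4), leaving out LL replicates 2 and 3 gave 1, and leaving out FL replicate 4 as well gave 0 with edgeR, with 1523 genes at an unadjusted p under 0.05. GPD1 passed at a log2 fold change of 0.47 with DESeq2, Scheme C, 24 runs (adjusted p = 1.36e-07) and voom (adjusted p = 2.47e-06), and MDH2 at 0.37 with 24 runs (adjusted p = 0.000213) and voom (adjusted p = 0.00185). The fit of 24 runs takes the 3 runs of 1 library as separate replicates. Its p-values and its count of DE genes therefore do not measure the spread between birds and are no test of the lines. The voom fit also works on the runs, and it sets a single correlation between the runs of a bird for all genes. It can therefore understate the spread between birds of a given gene. UGP2 did not pass with total scaling (0.59), no filter (0.65, adjusted p = 0.0545 in edgeR) or first runs (0.69), and without single birds it was 0.59 to 0.69. It was 0.63 without LL replicates 2 and 3, and 0.68 without FL replicate 4 too. PCK1 was -3.78 to -3.29 without single birds, -3.77 without LL replicates 2 and 3, and -3.70 without FL replicate 4 too (adjusted p = 0.0737 in edgeR). PCK1 could not be tested with at least 10 counts in every bird, in Scheme C, in first runs, in 24 runs or with voom, since too few reads were left. Without LL replicates 2 and 3, MDH1/MDH2 was -0.38 and ME1/MDH1 1.06. MDH1 turned to -0.13 and -0.15 without the birds named. Within Scheme C, GPD1/PCK1 (3.58), GPD1/GPD2 (0.33) and ME1/MDH1 (0.63) had an adjusted exact p of 0.0476. The FL runs of Scheme C held 0 or 1 PCK1 reads each. The pseudocount of 0.5 therefore weighs on GPD1/PCK1 there, and nothing is read from its p. LDHA turned to -0.11, PFKM to -0.27 and TPI1 to -0.10 without FL replicate 4, LL replicate 2 and LL replicate 3, and PFKM was -0.17 without FL replicate 4 alone and up to 5.13 without another bird.

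Bird numbers are shared by the lines, but the same-numbered birds did not deviate together (correlations of 0.229, -0.0585, -0.115 and -0.0605), so that the numbers were not taken as pairs. A fit with the replicate block gave 8 DE genes, GPD1 0.47 (adjusted p = 0.183 in edgeR), MDH2 0.38 (0.209), MDH1 0.16 (0.664), UGP2 0.65 (0.138) and PCK1 -3.56 (0.0451). The ratios had p = 0.125 or more over the 4 pairs, the smallest that sign flips allow. With 4 birds per line and 7 FL reads of PCK1, the size of its difference is uncertain. Its counting interval leaves out the spread between birds and does not bound that size.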
